A study of Mus musculus with 40 samples.

Results

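The nucleosome remodelling and deacetylase complex (NuRD) is followed here through the transcripts of 10 of its subunits, Chd3, Chd4, Mta1, Mta2, Mta3, Hdac1, Hdac2, Mbd3, Gatad2a and Gatad2b. The members were chosen by gene name, and all 10 were found among the 24732 genes of each of the 28 RNA-seq libraries. NuRD joins an ATP-driven remodeller that moves nucleosomes (Chd3 or Chd4) to histone deacetylases (Hdac1 and Hdac2). Mta1, Mta2 and Mta3 form the scaffold that holds the deacetylases, Mbd3 or its relative Mbd2 joins the subcomplexes, and Gatad2a or Gatad2b connects Mbd3 or Mbd2 to the remodeller. In lymphocytes NuRD is the main complex that contains Ikaros, a DNA-binding zinc finger protein (gene Ikzf1). Most subunits come as paralogues that take the same place in the complex, so levels are given by subunit family.

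The cells were sorted follicular B cells of C57BL/6 mice, all carrying MD4, a B cell receptor transgene specific for hen egg lysozyme (HEL). Cd23-cre deletes the floxed (fl) Ikzf1 alleles in mature B cells, and the fl/- genotype carries a deleted allele beside a floxed one. Cells treated in vitro for 1 day with CpG, a DNA ligand of Toll-like receptor 9, came as 4 libraries of Cd23-cre Ikzf1(fl/-) and 4 of Cd23-cre Ikzf1(fl/+) genotype. Cells from mice given HEL intravenously 1 day earlier came as 5 libraries of Cd23-cre Ikzf1(fl/fl) and 5 of Ikzf1(fl/fl) genotype without Cre. The 3 anergic libraries carried ML5 in addition, which supplies soluble HEL as a self-antigen, with the genotypes Ikzf1(fl/fl), Ikzf1(fl/+) and Cd23-Cre Ikzf1(fl/+). Naive cells came as 2 libraries of Cd23-cre Ikzf1(fl/-), 3 of Cd23-cre Ikzf1(fl/+) and 2 of Ikzf1(fl/+) genotype without Cre. The fl/+ cells with Cre, which serve as controls for fl/- cells, can lose 1 Ikzf1 allele themselves. No ages were labelled. Whether the libraries of a group are separate mice was not stated, so that the spread behind each p-value is that of libraries and may be technical in part. Replicate numbers follow the order of deposition within a group.

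Values are given as TPM, a measure scaled to library size and gene length that can be compared between genes. Recovered depth was 12126702 to 25424364 reads per library, and a member had 288 to 25713 reads in a library. Each title opens with a library number, whose first digits (36, 49 or 57) are called the series here. The fl/- naive libraries and 2 of the fl/+ naive libraries are series 36, the CpG libraries are series 49, and the others, with the remaining fl/+ naive library, are series 57. The naive cells of series 57 are thus 2 libraries of Ikzf1(fl/+) without Cre and 1 of Cd23-cre Ikzf1(fl/+). The summed level of 9 follicular B cell markers was 2044 to 3727 TPM with CpG and 12195 to 17935 TPM without. The summed level of 10 T and NK cell markers was 18.1 to 33.5 TPM in series 36 and at most 2.38 TPM in the other series, and 7 neutrophil markers summed to 22.7 to 95.1 TPM in series 36, to at most 0.652 TPM in series 57 and to 0 to 126 TPM with CpG. In bulk RNA, fewer cells of a type and less RNA per cell cannot be told apart. Ikzf1, the targeted gene, was at 57.3 and 65.3 TPM in naive fl/- cells. In naive fl/+ cells of series 36 it was at 120 and 136 TPM. After CpG it lay between 31.7 and 39.5 TPM in fl/- cells and between 135 and 172 TPM in fl/+ cells, and after HEL between 60.3 and 79.3 TPM with Cre and between 195 and 261 TPM without Cre.

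Promoter sequence is shown for 4 members called below, Hdac2, Mbd3 and Mta1, which were higher with CpG, and Gatad2b, which was lower with loss of Ikaros after CpG. The windows are the 250 bases before annotated starts in RefSeq, build GRCm38.p6, 5′ to 3′ on the gene's strand. They lie at chr10:36974294-36974543 (plus strand) for Hdac2, chr10:80399532-80399781 (minus strand) for Mbd3, chr12:113098028-113098277 (plus strand) for Mta1, and chr3:90292931-90293180 (plus strand) and chr3:90293836-90294085 (plus strand) for the first and second start of Gatad2b. Capitals mark GGGAA or its reverse complement TTCCC, the core of the Ikaros motif.
Hdac2: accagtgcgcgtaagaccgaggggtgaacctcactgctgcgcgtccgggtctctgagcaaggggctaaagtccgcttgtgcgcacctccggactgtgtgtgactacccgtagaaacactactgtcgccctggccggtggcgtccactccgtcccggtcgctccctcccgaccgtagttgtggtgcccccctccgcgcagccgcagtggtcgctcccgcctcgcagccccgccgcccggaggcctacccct
Mbd3: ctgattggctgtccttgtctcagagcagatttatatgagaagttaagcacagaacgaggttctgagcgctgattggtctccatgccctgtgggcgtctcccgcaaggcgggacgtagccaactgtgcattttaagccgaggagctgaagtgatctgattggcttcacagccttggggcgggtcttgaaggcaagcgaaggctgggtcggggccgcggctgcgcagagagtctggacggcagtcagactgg
Mta1: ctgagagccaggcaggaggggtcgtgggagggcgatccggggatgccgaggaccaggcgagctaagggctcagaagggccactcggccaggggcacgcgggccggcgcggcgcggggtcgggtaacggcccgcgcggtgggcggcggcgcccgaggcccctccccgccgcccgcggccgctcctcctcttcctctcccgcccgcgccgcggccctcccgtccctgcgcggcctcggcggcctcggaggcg
Gatad2b first start: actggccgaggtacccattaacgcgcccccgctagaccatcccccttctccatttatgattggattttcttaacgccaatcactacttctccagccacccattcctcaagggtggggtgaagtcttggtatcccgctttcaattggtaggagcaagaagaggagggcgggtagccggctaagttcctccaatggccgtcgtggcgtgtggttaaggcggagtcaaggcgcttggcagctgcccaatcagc
Gatad2b second start: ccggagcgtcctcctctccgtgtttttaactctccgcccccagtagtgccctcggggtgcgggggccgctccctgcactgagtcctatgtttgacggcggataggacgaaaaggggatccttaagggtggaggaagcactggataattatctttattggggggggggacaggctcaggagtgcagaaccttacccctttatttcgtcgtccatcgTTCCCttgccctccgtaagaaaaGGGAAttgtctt
RefSeq promoter windows matched 7 of the 10 members (10 windows), all but Chd3, Hdac1 and Mta3. GGGAA was present on either strand in 4 of these windows, and in 56.2% of the 32851 mouse promoter windows of the same length. The matches were 2 at the second start of Gatad2b, 3 and 1 at the starts of Gatad2a and 1 at the second start of Chd4. The Chd4 windows overlap each other. The Hdac2, Mbd3, Mta1 and Mta2 windows held none. CACGTG, the E-box bound by Myc, was in 0 of the 10 windows and in 6.02% of all windows. A match is a run of letters and does not show binding.

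Of the 10 transcripts, Chd4 and Mta2 were the most abundant in cells without CpG. Chd4, the main remodeller, ranged from 89.2 to 361 TPM over the 28 libraries, with a median of 225 TPM, and Mta2 from 160 to 256 TPM, with a median of 222 TPM. Mbd3 followed with a median of 155 TPM. Hdac2 had the lowest group mean of the 10 in each of the 6 sets without CpG, with single libraries at 19.5 to 36.8 TPM. With CpG the order was different. Mbd3 was then the most abundant, at 338 to 408 TPM over the 8 CpG libraries, and Hdac2 reached 80.0 to 137 TPM. Gatad2b in fl/- cells (18.5 to 21.7 TPM) and Mta3 in fl/+ cells (26.6 to 34.1 TPM) had the lowest means. The Chd4 row is marked in the files as overlapping another gene model, and its reads may belong in part to a neighbour.

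**Figure D1:**
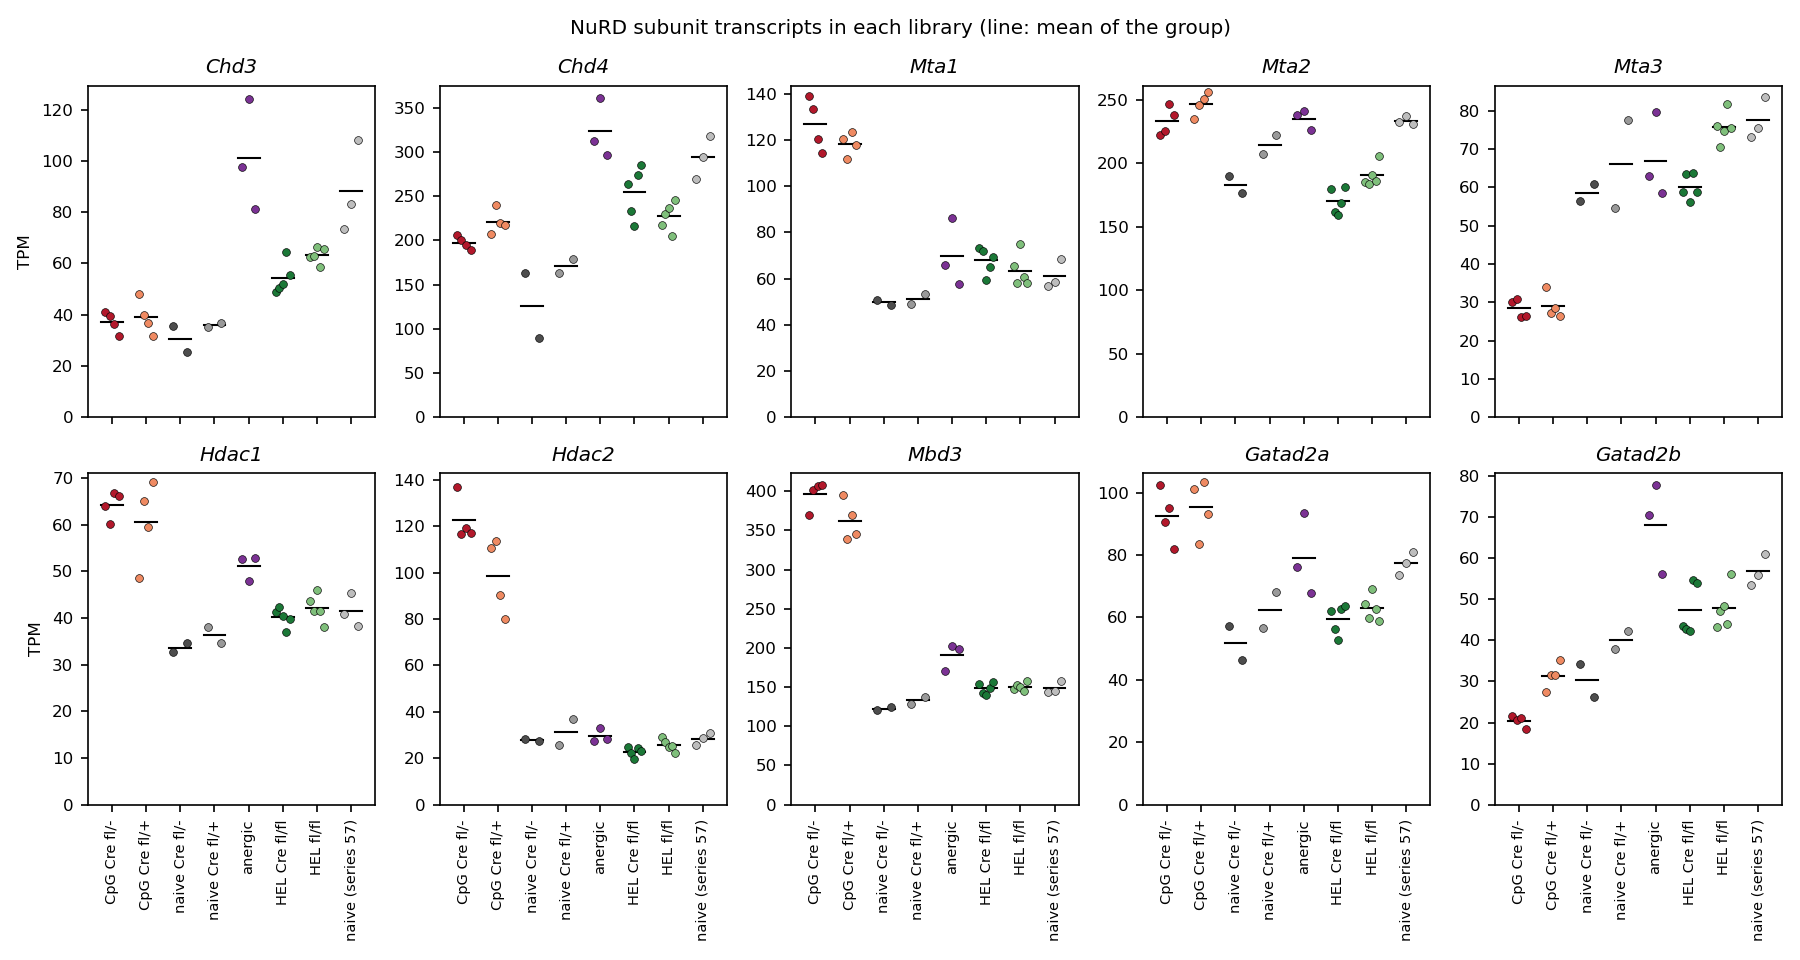
TPM of each of the 10 NuRD subunits (vertical axis, linear from 0) in each library, with groups along the horizontal axis, a point per library and a line at the group mean. The naive fl/+ library of series 57 is drawn in the last group. The 8 CpG libraries stand above all others for Mta1, Hdac2 and Mbd3, and Mta3 is at 26.2 to 34.1 TPM in them, below all others.

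The largest shifts among the members were between CpG-treated and naive cells. In Ikaros-sufficient fl/+ cells Hdac2, Mbd3, Mta1, Hdac1 and Gatad2a were higher with CpG, Mta3 and Gatad2b were lower, and Chd3, Chd4 and Mta2 did not pass. Calls were made in limma on log2(TPM + 1) at a threshold of 0.05 on the adjusted p, and all 10 members passed the filter on low values in every comparison. The 7 called members stand beside 64.1% of all 10527 genes tested that were called (43% higher and 21% lower), so the count itself is near the background. Values of 8 members did not overlap between the groups, beside 63.8% of all genes tested. CpG is confounded with series, since the CpG libraries are series 49 and the naive ones series 36 or 57, and the stimulus and the library series cannot be told apart. The CpG cells also spent 1 day in culture.

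Hdac2, the deacetylase paralogue of Hdac1, was at 110, 114, 90.3 and 80.0 TPM in fl/+ cells with CpG. It was at 25.5, 36.8 and 30.8 TPM in naive fl/+ cells. The groups did not overlap, and the lowest CpG library was above the highest naive one. The log2 difference was 1.64 ± 0.17 (SE, adjusted p = 3.18e-05). Mbd3 is the methyl-CpG-binding-domain protein that sets this form of NuRD apart from the Mbd2 form. It was at 395, 338, 369 and 345 TPM with CpG, against 129, 137 and 158 TPM in naive cells. Its groups did not overlap either, and the log2 difference was 1.35 ± 0.11 (adjusted p = 7.36e-06). Mta1, a scaffold subunit, was at 120, 112, 124 and 118 TPM with CpG, against 48.8, 53.3 and 68.5 TPM in naive cells. All CpG libraries were higher, by a log2 difference of 1.06 ± 0.13 (adjusted p = 9.18e-05). Hdac1 averaged 60.6 ± 8.9 TPM with CpG and 37.0 ± 1.9 TPM in naive cells (SD, n = 4 and 3), a log2 difference of 0.69 ± 0.14 (adjusted p = 0.00208). Gatad2a averaged 95.3 ± 8.9 and 68.6 ± 12.2 TPM in the same groups, a log2 difference of 0.48 ± 0.14 (adjusted p = 0.0152, and 0.0513 without naive fl/+ replicate 1).

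Mta3, the scaffold paralogue known in B cells for its work with Bcl6, moved the other way. It was at 34.1, 27.2, 28.6 and 26.6 TPM in fl/+ cells with CpG, against 54.7, 77.6 and 83.6 TPM in naive fl/+ cells. The groups did not overlap, and the log2 difference was -1.26 ± 0.17 (adjusted p = 0.000163). Gatad2b was at 27.4, 31.6, 31.6 and 35.2 TPM with CpG, against 37.8, 42.3 and 61.1 TPM in naive cells. All CpG values were lower, with a log2 difference of -0.54 ± 0.18 (adjusted p = 0.023). That call was lost without CpG fl/+ replicate 1 (-0.48, adjusted p = 0.0508), and the difference was -0.34 without naive fl/+ replicate 3, the series 57 library.

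For the remodellers the naive fl/+ libraries differ between series. Chd3 was at 31.7 to 48.0 TPM in fl/+ cells with CpG, against 35.3 and 36.8 TPM in the naive libraries of series 36 and 108 TPM in that of series 57. Chd4 was at 207 to 240 TPM with CpG. The naive libraries were at 164 and 179 TPM in series 36 and at 318 TPM in series 57. Chd4 thus lay above the naive libraries of one series and below the library of the other. Against the naive libraries of series 36 its log2 difference was 0.36 (adjusted p = 0.0155). Against the naive library of series 57 it was -0.53. Chd3 gave 0.10 (adjusted p = 0.615) and -1.46 in the same order. The fit against series 57 has a single naive library, which is assumed to vary like the CpG libraries, and it was chosen after seeing the data. Only effect sizes are given from it. The members called above with all naive fl/+ libraries had smaller or larger log2 differences against that library. They were 1.63 for Hdac2, 1.19 for Mbd3, 0.78 for Mta1, 0.64 for Hdac1, 0.23 for Gatad2a, -1.50 for Mta3 and -0.94 for Gatad2b.

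In Ikaros-deficient fl/- cells 7 members were higher and 2 lower with CpG, and Chd3 did not pass. This is beside 76.1% of 10808 genes called (56.3% higher and 19.8% lower). Values of 9 members did not overlap, beside 80.7% of all genes. Hdac2 was at 137, 117, 119 and 117 TPM with CpG, against 28.3 and 27.2 TPM in naive fl/- cells, a log2 difference of 2.10 ± 0.10 (adjusted p = 8.17e-07). Mbd3 was at 370, 402, 407 and 408 TPM with CpG, against 121 and 124 TPM, a difference of 1.69 ± 0.08 (adjusted p = 8.86e-07). Neither transcript overlapped between the groups. Mta1 (1.33 ± 0.11), Hdac1 (0.91 ± 0.09), Gatad2a (0.82 ± 0.13) and Mta2 (0.35 ± 0.09) were also higher, and Mta3 (-1.02 ± 0.11) and Gatad2b (-0.54 ± 0.14) were lower. Chd4 was called higher (0.71 ± 0.21, and 0.12 with adjusted p = 0.549 after median-ratio scaling), but its naive libraries were at 163 and 89.2 TPM, and the difference was 0.28 without naive fl/- replicate 2 and 1.14 without replicate 1. Chd3 was called (0.52, adjusted p = 0.0286) only without naive fl/- replicate 1. The naive fl/- libraries are among those of series 36, with T and NK cell and neutrophil markers. Their part in these differences was not tested.

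The median of all genes tested was itself 0.30 higher with CpG in fl/+ cells and 0.56 higher in fl/- cells on the log2 scale, and the members' medians were 0.32 and 0.77. TPM was also rescaled so that the median gene had a ratio of 1 (median-ratio scaling). In fl/+ cells Hdac2, Mbd3 and Mta1 were then called higher and Mta3 and Gatad2b lower. In fl/- cells these calls were the same, Hdac1 was called higher as well, and Mta2 turned to -0.25 and was called lower (adjusted p = 0.0487). The shares of all genes called above are for TPM as deposited, and no such share is given for these scaled calls. Relative to the other transcripts, then, Hdac2, Mbd3 and Mta1 were higher and Mta3 and Gatad2b lower in both genotypes under either scaling.

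**Figure D2:**
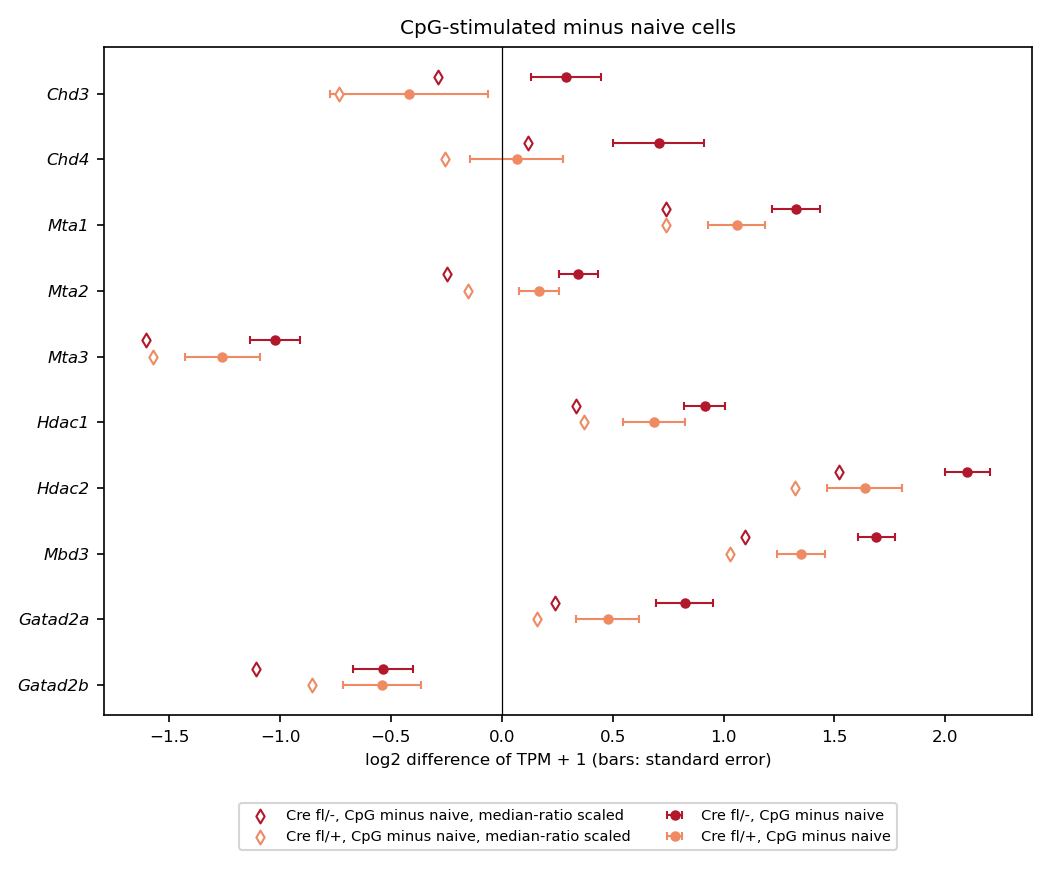
Log2 difference of TPM + 1 between CpG-treated and naive cells (horizontal axis) for each NuRD subunit, in fl/- and fl/+ cells. Filled points with standard errors are TPM as deposited and open diamonds are after median-ratio scaling, which shifts all members down. After scaling Hdac2, Mbd3, Mta1, Hdac1 and Gatad2a are above 0 in both genotypes. Mta3, Gatad2b, Chd3 and Mta2 are then below 0 in both, and Chd4 differs in side between the genotypes.

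Seen as shares of their families, the subunits had another paralogue balance with CpG than without. The share is the TPM of a member over the summed TPM of its family in the same library, and does not depend on scaling. Hdac2 held 63.6% of Hdac1 and Hdac2 in the 8 CpG libraries (53.6 to 69.4%) and 39.2% in the 20 others (32.5 to 51.4%). The ranges did not overlap, and Hdac2 was the larger part in every CpG library. Mta3 held 7.35% of the Mta family with CpG (6.64 to 8.76%) and 20.6% without (17.1 to 24.9%). Mta1 held 31.3% (29.0 to 35.5%) and 19.0% (15.1 to 24.2%), while Mta2 stayed the main scaffold transcript, with 61.3% and 60.4%. Gatad2b held 21.5% of Gatad2a and Gatad2b with CpG (17.5 to 27.4%) and 42.7% without (36.1 to 48.9%). Mbd3 held 76.3% of Mbd2 and Mbd3 with CpG (75.2 to 77.8%) and 60.2% without (54.1 to 66.0%). Chd4 held 84.6% of Chd3 and Chd4 with CpG (81.2 to 87.3%) and 79.4% without (74.4 to 84.4%), with overlapping ranges. These shares are a description and were not tested, and the confounding of CpG with series applies to them.

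**Figure D3:**
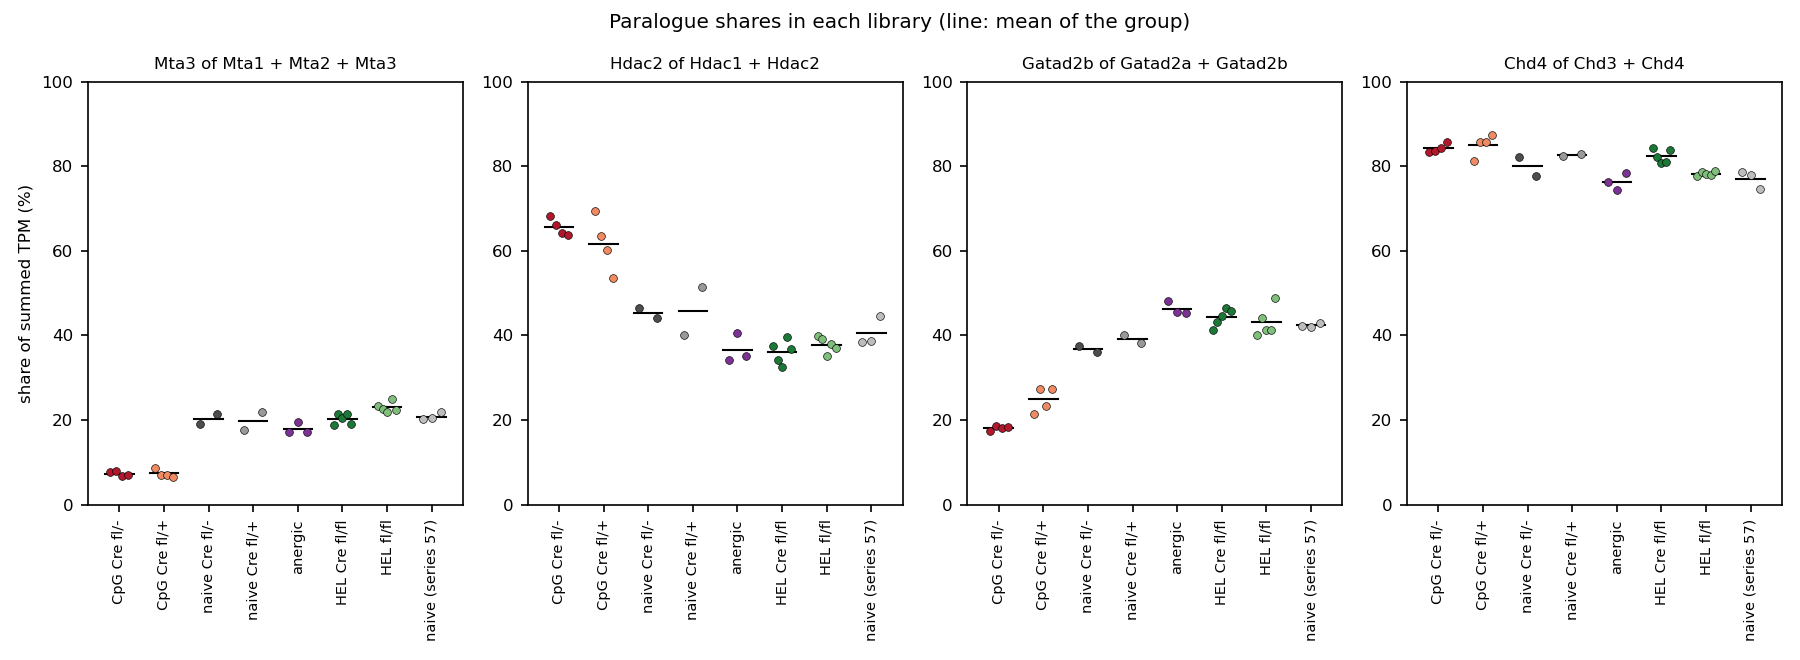
Share of a paralogue in the summed TPM of its family (vertical axis, percent) in each library, with groups along the horizontal axis, a point per library and a line at the group mean. In the 8 CpG libraries the Mta3 and Gatad2b shares are below, and the Hdac2 share is above, those of the 20 other libraries.

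The summed TPM of all 10 members was 1320 ± 19.5 TPM in CpG-treated fl/- cells and 1303 ± 23.9 TPM in CpG-treated fl/+ cells (SD, n = 4 each), against 714 ± 77.5 TPM in naive fl/- cells and 842 ± 64.9 TPM in the naive fl/+ cells of series 36 (n = 2 each). In series 57 it was 1215 ± 117 TPM in anergic cells and 1107 ± 68.4 TPM in naive cells (n = 3 each), and it was 925 ± 61 TPM in HEL-exposed Cre fl/fl cells and 949 ± 32.9 TPM in fl/fl cells (n = 5 each). Proliferation genes moved alongside in the CpG libraries, where 18 of them summed to 3975 to 6291 TPM, against 307 to 516 TPM in all other libraries. Whether proliferation has a part in the members' shifts was not tested.

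Loss of Ikaros was tested after CpG, after HEL and in naive cells. After CpG 1 of the 10 members was called, Gatad2b, which was lower in fl/- cells. This is beside 14.9% of 10386 genes called (9.14% higher and 5.8% lower), so the count is near the background. Gatad2b was at 21.7, 20.5, 21.0 and 18.5 TPM in fl/- cells, against 27.4, 31.6, 31.6 and 35.2 TPM in fl/+ cells. The groups did not overlap. The log2 difference was -0.60 ± 0.09 (adjusted p = 0.00339), about 0.650 of the fl/+ mean. It stayed between -0.66 and -0.54 when any library was left out, with adjusted p of at most 0.0133. Other marker lists moved with the genotype. Proliferation genes summed to 5806 to 6291 TPM in fl/- cells and 3975 to 5690 TPM in fl/+ cells, with 3 of 18 called higher. Follicular B cell markers summed to 2044 to 2829 TPM in fl/- cells and 2709 to 3727 TPM in fl/+ cells, with 6 of 9 called lower. Neutrophil markers summed to at most 19.2 TPM in fl/- cells and 126 TPM in fl/+ cells, and 0 of 4 tested passed. Of the 7, Retnlg was at 0 in every fl/- library and Elane in every fl/+ library. The part of these lists in the Gatad2b result was not tested.

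Gatad2a, its paralogue, averaged 92.5 ± 8.5 TPM in fl/- cells and 95.3 ± 8.9 TPM in fl/+ cells (SD, n = 4 each) and did not pass (adjusted p = 0.788). The Gatad2b share of the pair was 18.1 ± 0.5% in fl/- cells and 24.9 ± 3.0% in fl/+ cells, without overlap.

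For Hdac2 and Chd4 the CpG groups did not overlap either, but the test did not pass. Hdac2 lay between 117 and 137 TPM in fl/- cells and 80.0 to 114 TPM in fl/+ cells (0.32 ± 0.12, adjusted p = 0.105). Chd4 lay between 190 and 206 TPM in fl/- cells and 207 to 240 TPM in fl/+ cells (-0.16 ± 0.07, adjusted p = 0.139). Values of 21.4% of all genes tested did not overlap between the groups, beside these 2 members and Gatad2b. With a term for the first and second run of library numbers Hdac2 passed (adjusted p = 0.0329).

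After HEL 3 members were lower in Ikaros-deficient Cre fl/fl cells, Mta3, Mta2 and Chd3, and 0 were higher. This is beside 36.9% of 10258 genes called (12.9% higher and 24.1% lower), so the count is near the background. Values of 2 members, Mta2 and Mta3, did not overlap, beside 25.8% of all genes. Every deficient library carries Cre and no fl/fl control does, so that Cre and loss of Ikaros cannot be told apart here. Mta3 was at 58.7, 63.4, 56.1, 63.7 and 58.8 TPM in Cre fl/fl cells. In fl/fl cells without Cre it was at 76.1, 70.7, 74.7, 81.7 and 75.6 TPM. The groups did not overlap, and the log2 difference was -0.33 ± 0.06 (adjusted p = 0.000541). The call was kept without any one library (at most adjusted p = 0.00209) and with median-ratio scaling (-0.26, adjusted p = 0.00913). Mta2 was at 160 to 181 TPM in Cre fl/fl cells and 184 to 206 TPM in fl/fl cells, without overlap (-0.16 ± 0.05, adjusted p = 0.033). Chd3, the minor remodeller, was at 48.7, 50.6, 51.8, 64.5 and 55.3 TPM in Cre fl/fl cells, against 62.7, 62.7, 66.3, 58.4 and 65.7 TPM in fl/fl cells. Cre fl/fl replicate 4 overlapped the fl/fl group (-0.22 ± 0.07, adjusted p = 0.0302).

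The calls of Mta2 and Chd3 were close to the threshold. That of Mta2 was lost without any one of Cre fl/fl replicates 2, 3 and 4 or fl/fl replicates 3 and 5 (adjusted p up to 0.0805). That of Chd3 was lost without any one of Cre fl/fl replicates 1, 2 and 3 or fl/fl replicates 1, 2, 3 and 5 (up to 0.0773). With median-ratio scaling neither passed, Mta3 stayed lower and Chd4 was called higher (0.23 ± 0.07, adjusted p = 0.0156). The share of all genes called was given for TPM as deposited only. In TPM as deposited Chd4 was at 263, 233, 217, 274 and 286 TPM in Cre fl/fl cells, against 217, 230, 237, 205 and 246 TPM in fl/fl cells. The groups overlapped and the difference did not pass (0.16 ± 0.08, adjusted p = 0.133), except without Cre fl/fl replicate 3 (0.22, adjusted p = 0.0394). The Chd4 share of Chd3 and Chd4 was 82.4 ± 1.7% in Cre fl/fl cells and 78.2 ± 0.5% in fl/fl cells, without overlap. Myeloid markers moved with the genotype. The summed level of 8 of them was 28.5 to 41.0 TPM in Cre fl/fl cells and 10.1 to 15.8 TPM in fl/fl cells, where 4 and 3 of the 8 reached 1 TPM and 0 of the 8 were at 0 throughout. Of the 4 tested, 2 were called higher. The follicular B cell markers summed to 12195 to 13718 TPM in Cre fl/fl cells and 14739 to 15801 TPM in fl/fl cells, with 1 of 9 called higher and 4 lower. The part of these markers in the results was not tested.

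**Figure D4:**
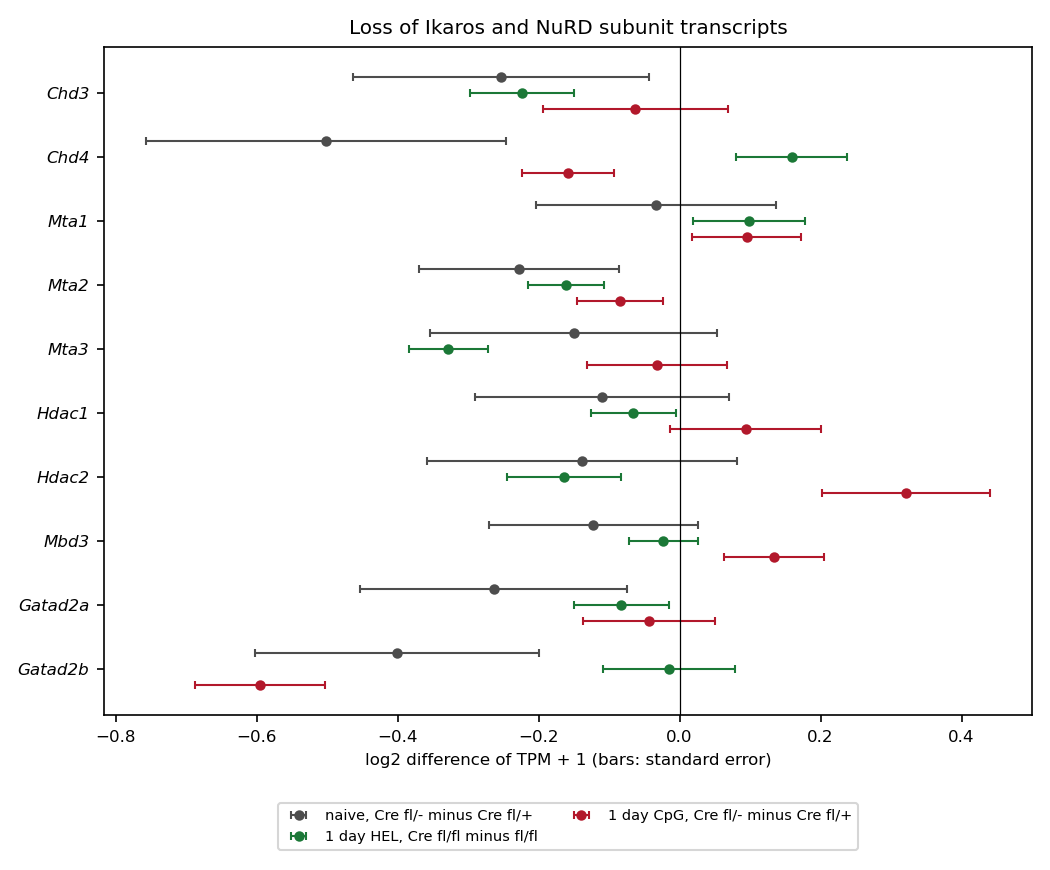
Log2 difference of TPM + 1 with loss of Ikaros (horizontal axis, bars are standard errors) for each NuRD subunit in naive, HEL-exposed and CpG-treated cells. Gatad2b stands at -0.60 with CpG and near 0 with HEL, and Mta3 stands at -0.33 with HEL and near 0 with CpG.

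In naive cells 0 members were called with loss of Ikaros by limma, 0 had an unadjusted p under 0.05, and voom on recovered reads also called 0. Only 0.0199% of 10053 genes were called, with 2 libraries on each side (896 had an unadjusted p under 0.05), and the median of all genes was -0.12. Gatad2b was at 34.3 and 26.3 TPM in fl/- cells, against 37.8 and 42.3 TPM in fl/+ cells of the same series. The values did not overlap, nor did those of Chd4, Mta2, Hdac1 and Mbd3, beside 40.6% of all genes tested. The log2 difference was -0.40 ± 0.20 (adjusted p = 0.62). Chd4 was at 163 and 89.2 TPM in fl/- cells, against 164 and 179 TPM in fl/+ cells (-0.50 ± 0.25, adjusted p = 0.623). The low value is that of fl/- replicate 2, without which the difference was -0.07. Without that library Gatad2b was at -0.21, and without fl/- replicate 1 Chd4 was at -0.93.

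The effect of Ikaros loss differed between CpG and HEL for 3 members. This was tested as the difference of the 2 effects over 18 libraries, and 22.4% of 11050 genes were called (15.2% higher and 7.19% lower). The controls are not alike, since both CpG genotypes carry Cre and the HEL controls do not. The effect on Gatad2b was lower with CpG than with HEL (CpG minus HEL -0.58 ± 0.14 on the log2 scale, adjusted p = 0.00564). With HEL, Gatad2b was at 43.6, 42.7, 42.3, 54.8 and 54.0 TPM in Cre fl/fl cells, against 43.2, 47.3, 48.5, 44.1 and 56.3 TPM in fl/fl cells, and the groups overlapped (-0.01 ± 0.09, adjusted p = 0.916). The difference for Hdac2 was 0.49 ± 0.14 (adjusted p = 0.0212, and 0.0505 without CpG fl/- replicate 1). Hdac2 after HEL was at 19.5 to 24.7 TPM in Cre fl/fl cells and 22.3 to 28.9 TPM in fl/fl cells (-0.16 ± 0.08, adjusted p = 0.129). For Chd4 the difference was -0.32 ± 0.11 (adjusted p = 0.0444). It did not pass in 13 of the 18 fits that left out 1 library, where the adjusted p reached 0.0845, nor without a filter on low TPM (0.0596). It passed without CpG fl/+ replicate 1, HEL Cre fl/fl replicates 2 and 3 or HEL fl/fl replicates 3 and 5. For Mta3 the difference of 0.30 ± 0.11 did not pass (adjusted p = 0.0515), and passed without CpG fl/- replicate 3 or 4, CpG fl/+ replicate 1, HEL fl/fl replicate 2 or HEL Cre fl/fl replicate 4 (the lowest adjusted p was 0.0072) and with the library-number term (0.0246). So the lower Mta3 after HEL was not shown to differ from that after CpG, where Mta3 lay between 26.2 and 31.0 TPM in fl/- cells and 26.6 to 34.1 TPM in fl/+ cells.

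Anergic cells, which meet HEL throughout life, were set against HEL-exposed fl/fl cells and against naive cells of series 57. Both comparisons use the same anergic libraries and are not independent. The anergic libraries are of mixed genotype, in part with Cre, while the HEL-exposed ones are all Ikzf1(fl/fl) without Cre and the naive ones all Ikzf1(fl/+). The part of genotype was not tested. The HEL-exposed fl/fl and naive libraries are used again below. Against HEL-exposed cells 7 members were higher in anergic cells, Chd3, Chd4, Gatad2b, Mbd3, Gatad2a, Mta2 and Hdac1, and 0 were lower, beside 42.2% of 10491 genes called (36.8% higher and 5.39% lower). Values of 5 members did not overlap, beside 39% of all genes. The median of all genes was 0.23 and that of the members 0.31. With median-ratio scaling Chd3 and Chd4 stayed higher, and Mta3 was called lower (-0.44, adjusted p = 0.0113). The 42.2% is for TPM as deposited, not for these scaled calls. Chd3 was at 97.8, 124 and 81.3 TPM in anergic cells, against 58.4 to 66.3 TPM in HEL-exposed cells. Every anergic library was higher, by a log2 difference of 0.65 ± 0.12 (adjusted p = 0.00295; 0.39 with scaling). Chd4 was at 312, 361 and 296 TPM in anergic cells, against 205 to 246 TPM in HEL-exposed cells, again without overlap (0.50 ± 0.09, adjusted p = 0.00262; 0.25 with scaling). Mta3 was at 62.9, 79.7 and 58.5 TPM in anergic cells, against 70.7 to 81.7 TPM, and did not pass in TPM as deposited (-0.19 ± 0.10, adjusted p = 0.161) except without anergic replicate 2 (-0.32, adjusted p = 0.0163).

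Gatad2b (0.50 ± 0.12), Mbd3 (0.33 ± 0.08), Gatad2a (0.31 ± 0.11), Mta2 (0.30 ± 0.07) and Hdac1 (0.27 ± 0.08) were the other members called against HEL-exposed cells. After scaling these were at 0.24, 0.075, 0.058, 0.046 and 0.019 in the same order, and none passed. The call of Gatad2a was lost without anergic replicate 1 or 2 or HEL fl/fl replicate 1, 2, 4 or 5 (adjusted p up to 0.118) or without the filter on low TPM (0.0585), and that of Hdac1 without anergic replicate 1 or HEL fl/fl replicate 2 (up to 0.0814). Anergic replicate 2 was the highest anergic library for 9 of the 10 members, all but Hdac1.

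Against naive cells 0 members were called in anergic cells by limma or by voom on recovered reads, beside 7.37% of 10519 genes (4.48% higher and 2.89% lower). Those with an unadjusted p under 0.05 were 2, beside 2405 of all 10519 genes tested, so this count is near the background. Mbd3 was at 171, 202 and 198 TPM in anergic cells, against 144, 145 and 158 TPM in naive cells, without overlap (0.35 ± 0.10, adjusted p = 0.0764). Hdac1 was at 52.6, 47.9 and 52.8 TPM in anergic cells, against 40.9, 45.4 and 38.2 TPM in naive cells, also without overlap (0.30 ± 0.10, adjusted p = 0.125). Values of 29.2% of all genes tested did not overlap between these groups.

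After 1 day of HEL, fl/fl cells had 5 members lower than naive cells, Chd3, Chd4, Mta2, Gatad2a and Gatad2b, and 0 higher. This is beside 48% of 10448 genes called (9.92% higher and 38.1% lower). The HEL-exposed libraries are Ikzf1(fl/fl) without Cre, and the naive ones are Ikzf1(fl/+), 1 of them with Cre. Genotype thus differs here along with antigen, and its part was not tested. Values of 4 members did not overlap, beside 46% of all genes, and the median was -0.16 over all genes and -0.19 over the members. With median-ratio scaling Chd3 (-0.27) and Chd4 (-0.18) stayed lower, and Mbd3 (0.20) and Mta1 (0.23) were called higher. The 48% is for TPM as deposited and is no background for these scaled calls. Chd3 was at 62.7, 62.7, 66.3, 58.4 and 65.7 TPM in HEL-exposed cells, against 73.3, 83.0 and 108 TPM in naive cells. The HEL-exposed libraries were all lower (-0.46 ± 0.11, adjusted p = 0.00561). The value of 108 TPM is that of the naive library with Cre. The difference lay between -0.58 and -0.30 when any library was left out, and the call was kept. Chd4 was at 205 to 246 TPM in HEL-exposed cells, against 269, 294 and 318 TPM in naive cells. These did not overlap either (-0.37 ± 0.08, adjusted p = 0.00274). Mta2 and Gatad2a were each at -0.29, and Gatad2b at -0.25 (adjusted p = 0.0386), a call lost without HEL fl/fl replicate 1, 2, 3 or 4, naive Ikzf1(fl/+) replicate 2 or the naive fl/+ library with Cre (adjusted p up to 0.152) and without the filter on low TPM (0.0677).

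In Ikaros-deficient Cre fl/fl cells after HEL 6 members were lower than in the same naive cells, which are Ikaros-sufficient, so that antigen and genotype differ at once. These were Chd3 (-0.68 ± 0.12), Mta2 (-0.45 ± 0.06), Gatad2a (-0.37 ± 0.08), Mta3 (-0.36 ± 0.07), Hdac2 (-0.31 ± 0.09) and Gatad2b (-0.26 ± 0.10), beside 64.2% of 10538 genes called (15.4% higher and 48.8% lower). Values of 5 members did not overlap, beside 60.4% of all genes. The median of all genes was -0.23 and that of the members -0.28. With median-ratio scaling Chd3 (-0.43) and Mta2 (-0.20) stayed lower and Mta1 (0.39) and Mbd3 (0.24) were higher. The 64.2% is for TPM as deposited, not for these scaled calls. The call of Hdac2 was lost without the naive fl/+ library with Cre (-0.25, adjusted p = 0.063). That of Gatad2b was lost without Cre fl/fl replicate 1, 2 or 3, naive Ikzf1(fl/+) replicate 2 or the naive library with Cre (adjusted p up to 0.154) or the filter on low TPM (0.0755). Chd4 (-0.21, adjusted p = 0.0727) passed without Cre fl/fl replicate 5 or naive Ikzf1(fl/+) replicate 1 (at lowest adjusted p = 0.0325).

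**Figure D5:**
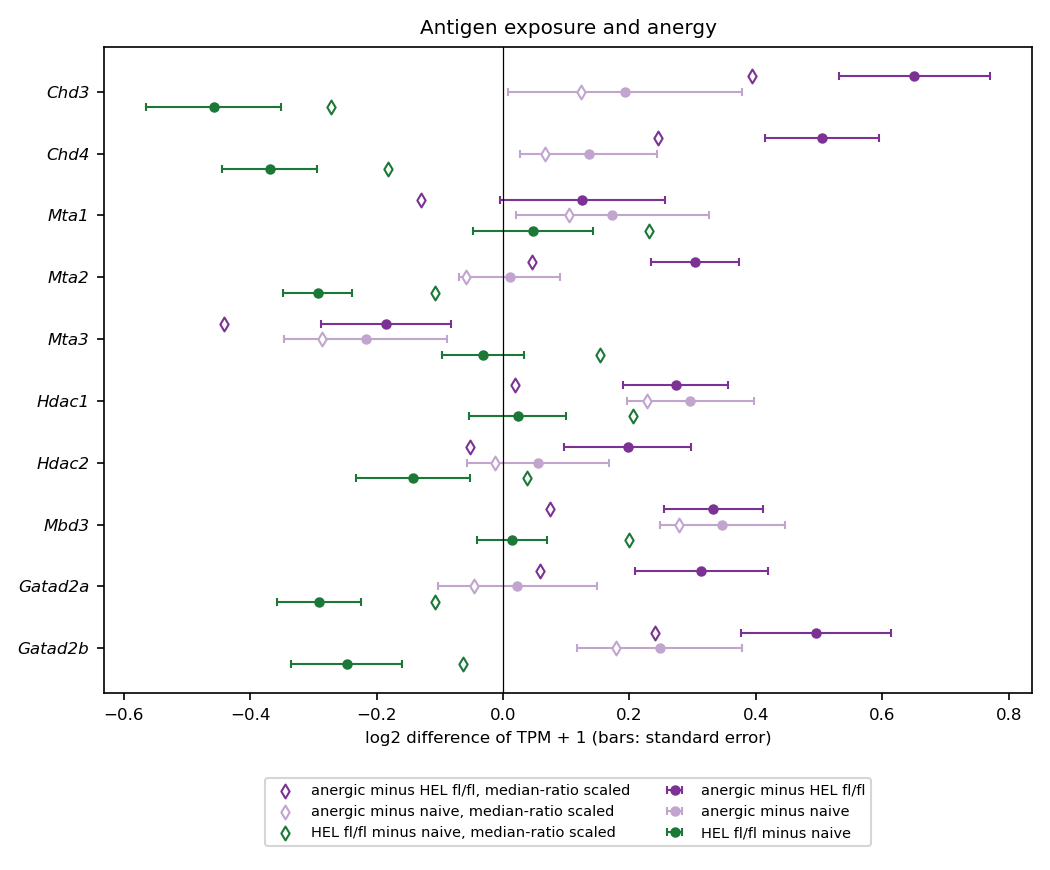
Log2 difference of TPM + 1 (horizontal axis) for each NuRD subunit between anergic and HEL-exposed, anergic and naive, and HEL-exposed and naive cells. Filled points with standard errors are TPM as deposited, and open diamonds are after median-ratio scaling. Chd3, Chd4, Gatad2b, Mbd3 and Hdac1 keep their side of 0 under both scalings in all 3 comparisons, and the other members do not.

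Across all groups Gatad2b had its highest mean in anergic cells (68.2 ± 10.9 TPM), then in naive cells of series 57 (56.8 ± 3.9), HEL-exposed fl/fl cells (47.9 ± 5.2) and HEL-exposed Cre fl/fl cells (47.5 ± 6.3 TPM). Neighbours in this part of the order overlapped. Naive fl/+ cells of series 36 came next (40.0 ± 3.2). Their highest value and the lowest HEL-exposed Cre fl/fl value were both 42.3 TPM, with no gap at this precision. CpG fl/+ cells (31.5 ± 3.2) and naive fl/- cells (30.3 ± 5.7) followed and overlapped each other. CpG fl/- cells were lowest (20.4 ± 1.4 TPM), apart from all others. For Hdac2 the order was CpG fl/- cells (122 ± 9.7 TPM), CpG fl/+ cells (98.6 ± 16.1 TPM) and then the 6 sets without CpG, whose means of 22.8 to 31.2 TPM overlapped from neighbour to neighbour.

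Other proteins that belong to or bind NuRD were measured in a list of 12, of which 10 were tested in each comparison. With CpG in fl/+ cells 3 were higher, 1 was lower and 6 did not pass, beside 64.1% of all genes called. Rbbp7, a histone chaperone subunit shared with other complexes, was at 260 to 326 TPM with CpG and 57.4 to 73.0 TPM in naive cells (2.12 ± 0.12). Rbbp4 (1.02 ± 0.13) and the small subunit Cdk2ap1 (1.15 ± 0.17) were higher too, and Zfp592 was lower (-0.66 ± 0.23). The Rbbp4 and Rbbp7 rows are marked as overlapping other gene models. Mbd2 averaged 111 TPM with CpG and 110 TPM in naive cells and did not pass (0.017 ± 0.10), while in fl/- cells it was higher with CpG (0.43 ± 0.10). With loss of Ikaros after HEL 2 of the 10 were higher and 2 lower, beside 36.9% of all genes called. Mbd2 was at 73.4 to 87.9 TPM in Cre fl/fl cells and 91.5 to 102 TPM in fl/fl cells (-0.27 ± 0.06), Rbbp7 was lower (-0.32 ± 0.07), and Cdk2ap1 (0.33 ± 0.07) and Pwwp2b (0.69 ± 0.12) were higher. With loss of Ikaros after CpG 3 were higher and 1 lower, beside 14.9% of all genes called. Rbbp7 (0.30 ± 0.08), Cdk2ap1 (0.35 ± 0.09) and Pwwp2b (0.69 ± 0.12) were higher and Zfp592 was lower (-0.42 ± 0.07). The difference between CpG and HEL passed for Rbbp7 (0.62 ± 0.11), Mbd2 (0.43 ± 0.09) and Zfp592 (-0.35 ± 0.09).

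Among 11 factors that bring NuRD to genes in lymphocytes, 7 were tested for loss of Ikaros after HEL (1 higher and 3 lower) and 8 after CpG (2 higher and 2 lower). The shares of all genes called were 36.9% after HEL and 14.9% after CpG, and Ikzf1 itself is on this list and among those lower in both. After CpG, Zfpm1, also called FOG1, which binds NuRD through its N terminus, had 188 to 198 TPM in fl/- cells and 76.1 to 110 TPM in fl/+ cells (1.00 ± 0.11, adjusted p = 0.000757). It was at 62.9 to 79.2 TPM in anergic cells and 11.2 to 15.1 TPM in naive cells (2.34 ± 0.13, adjusted p = 8.34e-05). After HEL it did not pass with loss of Ikaros (34.1 TPM in Cre fl/fl and 30.3 TPM in fl/fl cells on average), and the difference between CpG and HEL was 0.85 ± 0.19 (adjusted p = 0.00375). Bcl6, a repressor that recruits NuRD through Mta3 in germinal centre B cells, was lower with loss of Ikaros after HEL (-0.59 ± 0.12) and after CpG (-0.53 ± 0.14). Ikzf3, which encodes the Ikaros relative Aiolos, lay between 46.5 and 66.8 TPM in fl/+ cells with CpG and 186 to 373 TPM in naive fl/+ cells (-2.09 ± 0.24, adjusted p = 6.76e-05).

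Other chromatin complexes give a scale for these counts. With loss of Ikaros after HEL, where 36.9% of all genes were called, 3 of 10 NuRD members were called, beside 1 of 13 tested in the Sin3 complex, which shares Hdac1 and Hdac2 with NuRD, 4 of 9 in the CoREST and MiDAC complexes, 5 of 18 in the BAF remodelling complex, 7 of 13 other histone deacetylases and 1 of 8 other CHD and ISWI remodellers. After CpG, where 14.9% were called, these counts were 1 of 10 for the members and, in the same order, 3 of 13, 4 of 10, 1 of 17, 1 of 12 and 1 of 8. Within the Sin3 list Arid4b (-0.63 ± 0.13) and Sin3b (-0.30 ± 0.06) were lower and Sap30 (0.51 ± 0.12) was higher after CpG, and within CoREST and MiDAC Rcor2 (0.46 ± 0.10) was higher. The ISWI remodeller Smarca5 was at 63.3 to 82.7 TPM with CpG and 16.1 to 20.3 TPM in naive fl/+ cells (1.87 ± 0.14).

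The genes whose log2(TPM + 1) followed the 4 most variable members most closely over the 28 libraries, among 8553 genes with a mean of at least 5 TPM, were read off by Pearson r. These values are a description. The libraries fall into 8 with and 20 without CpG, and r over the 20 without is given beside each. For Hdac2 they were Serbp1 (r = 0.994, and 0.815 without CpG), Tfg (0.993 and 0.867) and Fkbp1a (0.990 and 0.860). For Mbd3 they were Snrnp70 (0.989 and 0.921), Myo19 (0.988 and 0.854) and Arfip2 (0.987 and 0.809), of which the Myo19 row is marked as overlapping another gene model. For Mta3 they were Gpsm3 (0.983 and 0.842), Klc4 (0.979 and 0.822) and Fam102a (0.978 and 0.799). For Chd3 they were Kmt2b (0.971 and 0.971) and Phf12 (0.959 and 0.961).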

How the data were processed

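RNA-seq of sorted B cells was analysed in 28 of the 40 listed samples, and the others, of ATAC-seq and ChIP-seq, were not used here. The authors deposited transcripts per kilobase and library size (TPM) per gene, 1 file per library, each summing to 1000000. The submitters' processing notes name the build mm9 and the tools featureCounts 1.5.0, TopHat 1.4.1, deepTools 3.0.1, SAMtools 1.4 and Bowtie. What each did, the annotation and the use of strand are not given in the sources used here. The files mark 3539 genes as overlapping another model, Chd4 among the members.

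The values of each gene are whole multiples of 1 read. Whole reads (tolerance 0.01) were recovered for 18843 of 18843 genes above 0. All 40 pairs of replicates differed by more than sampling noise (chi-square per degree of freedom 6.63 to 54.6).

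Each comparison was fitted with limma 3.58.1 in R 4.3.3 to log2(TPM + 1) with a mean-variance trend, two-sided, on genes with TPM of at least 1 in at least the number of libraries of the smaller group (4 for the difference of effects), with Benjamini-Hochberg adjustment over all genes tested and a threshold of 0.05. Differences on this scale understate those of low genes. Values after ± are standard errors beside log2 differences and standard deviations beside TPM and shares. The fit was tested on simulated libraries. Alternatives were a pseudocount of 0.1, no filter, median-ratio scaling, voom on recovered reads, a library-number term and leaving out each library.

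The members and gene lists were chosen with earlier results of these data known. Named were all members, Mbd2, Ikzf1, Ikzf3, from each other list only genes among the 4 called with the smallest adjusted p in a comparison, and the 3 genes most like each of the 4 most variable members, of which 1 is not reported here. Mbd2 and Zfpm1 are also given where they were not called.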

Additional observations from a re-analysis of the deposited data

Results flagged for a closer look

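In a group of 4 or 5 libraries a value can stand apart from the rest by Dixon's gap criterion, which chance meets in about 1 in 20 groups. Of 40 groups of member values checked, 2 held such a value, both in CpG fl/- replicate 1. Hdac2 was at 137 TPM there and at 117 to 119 TPM in the other fl/- libraries, and Mbd3 was at 370 TPM there and at 402 to 408 TPM in the others. Without this library the Hdac2 difference between the Ikaros effects did not pass (0.43, adjusted p = 0.0505).

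The effect of Ikaros loss on 3 members differed between CpG and HEL by a test of the difference itself, with log2 values, CpG minus HEL, of -0.58 for Gatad2b, 0.49 for Hdac2 and -0.32 for Chd4, beside 22.4% of all genes called. The Chd4 call was lost in 13 of 18 fits that left out 1 library (adjusted p up to 0.0845).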

How the results depend on the processing

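Gatad2b after CpG and Mta3 after HEL kept their direction and call with loss of Ikaros under every alternative run. Counts of members called depended on the setting. Against HEL-exposed cells, anergic cells had 7 members called as deposited and 3 with median-ratio scaling or voom. Loss of Ikaros after CpG had 1, and 2 with the library-number term. Leaving out 1 library gave 1 to 3 for loss of Ikaros after HEL, with another count in 8 of 10 fits. For the difference between CpG and HEL it gave 1 to 4 (1 without CpG fl/- replicate 1), with another count in 10 of 18 fits. The count also changed in 7 of 8 fits for Ikaros-deficient HEL-exposed against naive cells (4 to 7), 6 of 8 for HEL-exposed against naive cells and 5 of 8 for anergic against HEL-exposed cells. With CpG against naive it changed in 3 of 7 fits in fl/+ and 1 of 6 in fl/- cells. It never changed for loss of Ikaros after CpG or in naive cells. No paired analysis was possible because the labels give no replicate numbers that groups share. Fits that leave a group with 1 library assume that it varies like the others. The fit against the naive library of series 57 alone was chosen after seeing the data. Of all genes, loss of Ikaros in naive cells called 2, and 0 with a pseudocount of 0.1 or without the filter, 17 with scaling and 58 with voom. Anergic against HEL-exposed cells called 4425 genes, and 2505 with scaling and 2584 with voom.

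Over all 100 results of a member in a comparison, median-ratio scaling turned the direction in 20. Of these, 1 was called under both scalings (Mta2 with CpG in fl/- cells), 1 with scaling only (Mbd3 in Ikaros-deficient HEL-exposed against naive cells) and 18 under neither. The other alternatives are given for 60 of the 100, those called as reported or under an alternative and some others that the text describes. Among the 60 the direction turned as follows, and the cause was not tested. With median-ratio scaling and voom, in that order, Gatad2b with loss of Ikaros after HEL was at 0.056 and 0.068. In Ikaros-deficient HEL-exposed against naive cells Chd4 was at 0.041 and 0.037 and Mbd3 at 0.24 and 0.24. With CpG against naive Chd4 in fl/+ cells was at -0.25 and -0.28, and in fl/- cells Chd3 was at -0.29 and -0.32 and Mta2 at -0.25 and -0.28. Against the naive libraries of series 36, Chd3 in fl/+ cells was at 0.10, and against that of series 57 Chd4 was at -0.53. Leaving out 1 library spanned 0 for Gatad2b with loss of Ikaros after HEL (-0.068 to 0.044), for Mta1 (-0.013 to 0.13) and Mbd3 (-0.0095 to 0.057) in HEL-exposed against naive cells, for Mbd3 in Ikaros-deficient HEL-exposed against naive cells (-0.033 to 0.034), and for Chd4 (-0.11 to 0.36) and Chd3 (-0.70 to 0.10) with CpG in fl/+ cells. Of 756 alternative values for the 60, 611 kept direction and call, 90 lost the call, 26 gained it and 29 turned.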
